A study of Mus musculus with 4 samples.

Results

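The cells described here are Lyz2-positive liver cells that carry RNA of the interferon-induced chemokines Cxcl9 and Cxcl10. In the 4 libraries of the study, 9609 cell barcodes passed a minimum of 200 genes and a ceiling of 10% on mitochondrial UMIs (unique molecular identifiers, counts of single RNA molecules). Of these, 5870 had at least 0.2% of their UMIs from Lyz2, the lysozyme gene of monocytes, macrophages and neutrophils. A cell was counted as a member when it also had at least 1 UMI of Cxcl9 or Cxcl10 and when Cxcl9, Cxcl10, Gbp2 and Gbp5 together took at least 0.2% of its UMIs. The rule selected 311 cells: 156 from the NCD libraries (88 and 68) and 155 from the MCD libraries (67 and 88). The remaining 5559 Lyz2 cells (814, 886, 1792 and 2067) served as the comparison within each library. Because the cells were chosen by the measured UMIs of these 5 genes, their levels are given as a description and were not tested.

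The study profiled sorted liver myeloid cells by droplet single-cell RNA sequencing. All mice were male wild-type C57BL/6, obtained at 8 weeks of age and fed for 6 weeks. The NCD groups received a normal control diet, and the MCD groups received food without methionine and choline, which is widely used in mice to produce fatty liver with inflammation. Cells were sorted as 7AAD-, CD45+, Ly6G- and CD11bint, so Ly6G-bearing neutrophils were gated out, and the labels disagree on whether F4/80 was low or high. Each diet had 2 libraries, and no source used here says if a library came from 1 mouse or several. P-values therefore measure the spread between libraries, which may be technical, and diet and preparation cannot be told apart.

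CXCL9 and CXCL10 are secreted chemokines that bind CXCR3 on activated T cells and natural killer cells and draw them into tissue. Interferon-gamma acts through its receptor and JAK kinases, and the transcription factor IRF1 takes part in switching on Cxcl9, the guanylate-binding proteins and antigen-presentation genes. Type I interferons act through STAT2 and IRF9 on sites called ISREs and induce antiviral genes such as the Ifit family. Cxcl10 answers to both interferon types and to NF-kB, while Cxcl9 is classically the more dependent on interferon-gamma. In the liver, monocytes and macrophages are known sources of both chemokines.

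Cxcl9 and Cxcl10 lie close together on chromosome 5 of the mouse genome (GRCm38, GENCODE M21), at chr5:92321347-92328079 and chr5:92346638-92348889, both on the minus strand. Gbp2 and Gbp5 lie on chromosome 3, at chr3:142620602-142638008 and chr3:142493978-142522344. The 250 bases upstream of the RefSeq start sites of both chemokine genes (RefSeq, GRCm38.p6) are printed below because they hold different sets of motif matches; capitals mark the matches.
Cxcl9, chr5:92328080-92328329, strand -: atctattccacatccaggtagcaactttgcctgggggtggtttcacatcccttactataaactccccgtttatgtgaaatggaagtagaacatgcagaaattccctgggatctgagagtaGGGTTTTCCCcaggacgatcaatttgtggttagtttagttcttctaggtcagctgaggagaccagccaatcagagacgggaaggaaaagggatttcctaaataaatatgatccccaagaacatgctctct
Cxcl10, chr5:92348890-92349139, strand -: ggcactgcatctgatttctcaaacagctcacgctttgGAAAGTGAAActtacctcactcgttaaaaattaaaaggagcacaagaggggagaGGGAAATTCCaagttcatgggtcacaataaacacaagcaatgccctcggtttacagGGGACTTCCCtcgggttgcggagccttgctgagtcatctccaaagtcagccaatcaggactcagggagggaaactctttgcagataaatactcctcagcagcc
Patterns of letters were searched on both strands. They were GAAA, 2 bases of any kind and GAAA for the ISRE, TTC, 3 bases of any kind and GAA for the interferon-gamma activated site called GAS, and GGGA, 4 bases of any kind and CC for an NF-kB type site. The Cxcl10 window held 1 ISRE match, from 213 to 204 bases before the start, and NF-kB type matches from 159 to 150 and from 103 to 94 bases before it, the latter on both strands. The Cxcl9 window held 1 NF-kB type match, from 130 to 121 bases before the start, and no match to the other patterns as spelled. The Gbp2 window held an ISRE match, and the Gbp5 window held 1 ISRE, 2 GAS and 1 NF-kB type match. Over 32851 mouse promoter windows of the table, 2.98% held the ISRE pattern, 7.02% the GAS pattern and 17.6% the NF-kB type pattern. A match is a string of letters and not a measured binding site.

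Levels are given as CPM, the UMIs of a gene per 1000000 UMIs of the summed cells, always in the order NCD replicate 1, NCD replicate 2, MCD replicate 1, MCD replicate 2. Cxcl9 stood at 2341, 1928, 1791 and 745 CPM in members and at 84.5, 47.5, 10.1 and 10.9 CPM in the other Lyz2 cells. Cxcl10 stood at 2765, 4777, 4726 and 4617 CPM in members and at 79.3, 59, 71.8 and 110.0 CPM in the others. Cxcl10 was thus at similar levels in 3 libraries and lower in NCD replicate 1, while Cxcl9 was lowest in MCD replicate 2. Gbp2, an interferon-inducible GTPase that acts on membranes around microbes, stood at 616, 751, 958 and 529 CPM in members and 78.5, 46.4, 36.9 and 32.2 CPM in the others. Gbp5, a related GTPase that promotes inflammasome activation, stood at 353, 481, 297 and 236 CPM against 28.7, 16.2, 10.8 and 9.94 CPM. Lyz2 stood at 5277, 6744, 12910.5 and 18641 CPM in members and 7071, 6959.5, 17393 and 21546 CPM in the others, so it was higher on MCD in both kinds of cell. No single member cell held more than 16.7% of a library's member UMIs of any of these genes. When each cell's UMIs were divided at random and only 1 portion chose the members, the other portion gave Cxcl9 at 2457, 1736, 1747 and 693 CPM and Cxcl10 at 2441, 4970.1, 4772 and 4466 CPM in the cells so chosen.

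**Figure D1:**
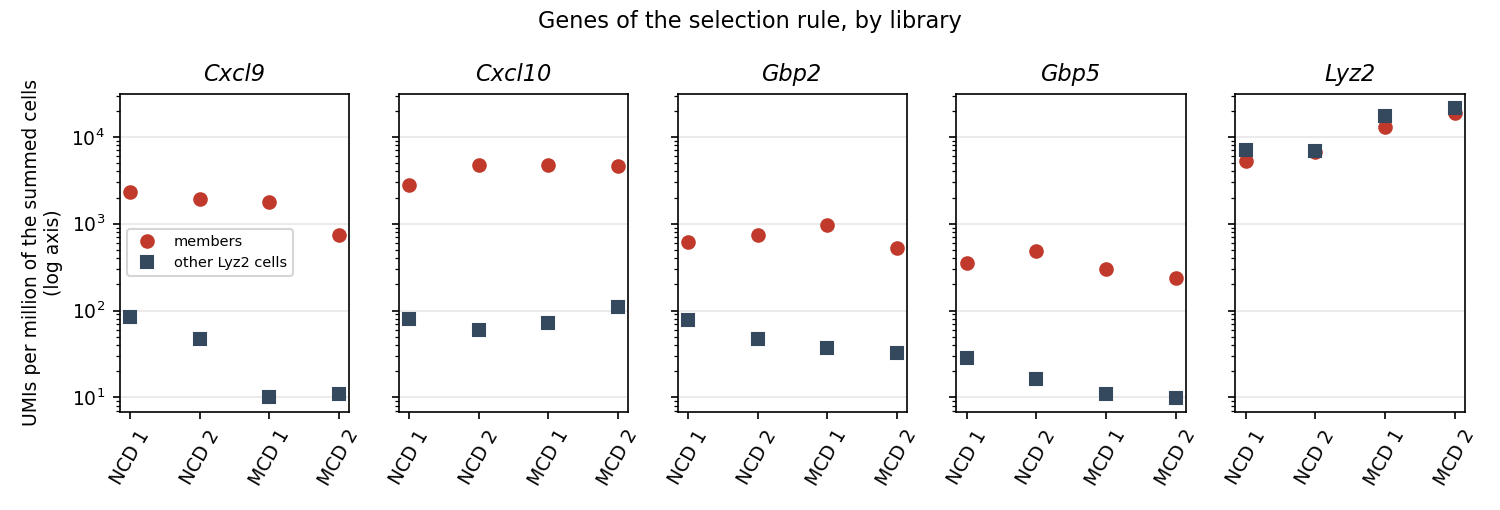
Levels of the 5 genes of the selection rule in CPM (log axis) in each library, in members (circles) and in the other Lyz2 cells (squares). Cxcl9 in members runs from 745 to 2341 and in the others from 10.1 to 84.5; Lyz2 is the gene for which both kinds of cell lie close together, with MCD above NCD.

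Within the member class, 141 cells had UMIs of both chemokines, 38 had only Cxcl9 and 132 had only Cxcl10. By library, cells with both numbered 48, 28, 39 and 26, cells with only Cxcl9 numbered 10, 18, 7 and 3, and cells with only Cxcl10 numbered 30, 22, 21 and 59. The share of members with more Cxcl9 than Cxcl10 UMIs was 37.5, 36.8, 35.8 and 13.6%, lowest in MCD replicate 2 and nearly equal in the other 3 libraries. At least 1 UMI of Gbp2 or Gbp5 was found in 249 of the 311 members, although the rule did not require it. The 4 marker genes together took a median of 0.511, 0.62, 0.519 and 0.372% of a member's UMIs. Members just inside the threshold, with 0.2% to 0.25%, numbered 12, 6, 7 and 18, and cells just outside it, with 0.15% to 0.2%, numbered 20, 8, 15 and 31, so the class is a range and not a set with a gap around it. The call rested on 3 or fewer UMIs of the 4 genes in 9 members.

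Depth differed strongly between diets and little between members and the cells they were compared with. The median UMIs per cell were 2563.5, 2288.5, 14796 and 14219.5 in members and 2131.5, 2276.5, 13557 and 12941 in the others. The member sums held 368591, 199723, 1000661 and 1370847 UMIs. Median mitochondrial shares of members were 7.51, 7.33, 3.54 and 3.24%. To compare shares of cells, each cell was thinned to 1000 UMIs. After thinning, Cxcl9 was found in 61.6, 58.2, 50 and 18.6% of members and 3.47, 2.6, 0.52 and 1% of the other Lyz2 cells (65.9, 67.6, 68.7 and 33% and 8.11, 7.45, 3.29 and 5.85% before thinning). Cxcl10 was found in 80.2, 70.1, 74.2 and 84.9% of members and 6.08, 4.42, 4.85 and 8.12% of the others (88.6, 73.5, 89.6 and 96.6% and 13.4, 10.9, 26.7 and 33.2% before thinning). Cells with B cell markers, which should lack both genes, were found only on MCD, and of their 39 and 40 thinned cells 0 and 0 had a Cxcl9 UMI and 0 and 1 had a Cxcl10 UMI. A count of 0 allows a share of up to 7.69% and 7.5% there, which is above the thinned Cxcl9 shares of the other Lyz2 cells on MCD. Before thinning, 5 and 12.2% of the cells with B cell markers had a Cxcl9 UMI and 17.5 and 14.6% a Cxcl10 UMI, at median depths of 5593 and 4879 UMIs. The unthinned Cxcl9 shares of the other Lyz2 cells on MCD, 3.29 and 5.85%, lay below those of the cells with B cell markers. These other Lyz2 cells held 242 Cxcl9 UMIs in 59 cells and 293 in 121 cells. How much of this was background was not tested.

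Genes the rule did not use are set beside the label of interferon-activated myeloid cells. The sort had chosen cells by CD45 and CD11b protein, so finding Ptprc and Itgam RNA is no check of the label. Ptprc, the gene of CD45, was found in 68.6, 79.1, 66.7 and 54.7% of thinned members and 62.8, 62.2, 63.9 and 60.7% of the others (90.9, 94.1, 100 and 100% and 85.4, 86.5, 98 and 97.8% before thinning). Itgam, the gene of CD11b, was found in 12.8, 19.4, 22.7 and 17.4% and 20, 21.4, 27.2 and 24.6% after thinning (34.1, 39.7, 88.1 and 88.6% and 40.4, 45.5, 90.3 and 90% before). Ccr2, the receptor that brings monocytes into tissue, was found in 45.3, 40.3, 34.8 and 38.4% of thinned members and 44.2, 41.2, 41.1 and 42% of the others (64.8, 72.1, 88.1 and 86.4% and 65.1, 64.7, 83.6 and 85.4% before). The 10 Kupffer cell markers summed to 643, 486, 1138 and 932 CPM in members and 547, 609, 1091 and 1154 CPM in the others, and 0 of the 4 that could be tested were called. Of the list, 0, 5, 5 and 4 genes had 0 UMIs in members, with Timd4, Vsig4 and Marco at 0 in NCD replicate 2 and both MCD libraries. T cell markers summed to 0, 30, 2 and 37.9 CPM in members and 4.85, 11.5, 2.34 and 0.819 CPM in the others. In MCD replicate 2, 3 members had at least 2 UMIs of T cell markers. Natural killer and innate lymphoid markers summed to 298, 65.1, 38 and 58.4 CPM in members. In the others they summed to 99.5, 128, 22.6 and 26.2 CPM. B cell markers summed to 10.9, 10, 13 and 10.2 CPM in members and 11.3, 5.76, 17.8 and 13.3 CPM in the others. Endothelial markers were not near 0: the 8 genes summed to 1438, 1117, 452 and 821 CPM in members and 1161, 1730.2, 165 and 370.1 CPM in the others. The leukocyte and monocyte genes were thus found in members in every library, and the interferon genes follow.

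The members made up 9.76% of the Lyz2 cells in NCD replicate 1 (exact Clopper-Pearson 95% interval 7.90 to 11.9%) and 7.13% in NCD replicate 2 (5.58 to 8.95%). They made up 3.60% in MCD replicate 1 (2.80 to 4.55%) and 4.08% in MCD replicate 2 (3.29 to 5.01%). The mean was 8.44% ± 1.86 (SD, n = 2) on NCD and 3.84% ± 0.339 (SD, n = 2) on MCD, a difference of -4.60 percentage points, and the libraries of the diets did not overlap. An exact two-sided permutation test over the 4 libraries gave p = 0.33, the smallest value that 2 libraries against 2 allow. With all cells thinned to 1000 UMIs before the rule was applied, the shares were 11.7, 8.03, 4.6 and 5.54%. The intervals cover counting error only. The denominator also differed between diets, since 902 and 954 Lyz2 cells were present on NCD and 1859 and 2155 on MCD.

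**Figure D2:**
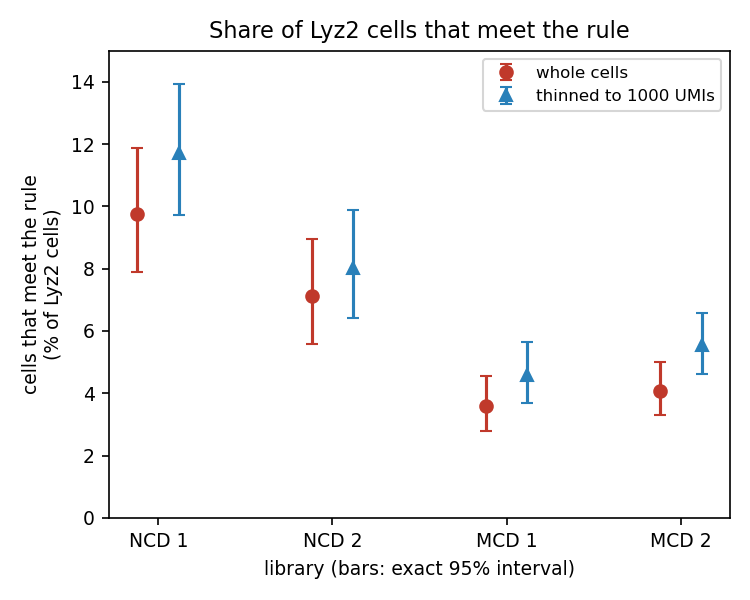
Percentage of Lyz2 cells that meet the selection rule in each library, from whole cells (circles) and from cells thinned to 1000 UMIs (triangles), with exact 95% intervals as bars. The NCD libraries stand at 9.76 and 7.13% and the MCD libraries at 3.60 and 4.08% with whole cells, in the same order of diets as after thinning.

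Members were then compared with the other Lyz2 cells of their library across all genes. UMIs were summed per library and class and tested with edgeR's quasi-likelihood test with library as a block, Benjamini-Hochberg adjustment over all tested genes and 0.05 as the threshold. Of 8650 genes tested, 643 (7.43%) were called, 435 (5.03%) higher and 208 (2.4%) lower in members, and the median log2 fold change over all genes was -0.03. The genes that were higher in members were led by interferon-induced genes that the rule had not used. Of the 12 listed genes of interferon-gamma response transcription, 8 were higher, 1 was lower and 3 were not called, with a median log2 fold change of 1.17. Of the 28 tested type I interferon-stimulated genes, 25 were higher and 0 lower (median 1.30). These lists were chosen with results of these libraries known, so their direction is a description.

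Irf1, an interferon-induced transcription factor, stood at 328, 340.5, 749.5 and 509 CPM in members and 102, 80.9, 138 and 164 CPM in the others (log2 fold change 1.99, SE 0.14, edgeR adjusted p = 5.73e-08). Every member sum was above every other sum. Irf8, a myeloid factor that partners IRF1, stood at 429, 340.5, 545 and 350.1 against 124, 102, 201 and 188 CPM (log2 fold change 1.43, SE 0.13, edgeR adjusted p = 1.12e-06). Batf2, an interferon-gamma-induced leucine zipper factor of macrophages, had the largest fold of the list, with 67.8, 70.1, 64 and 40.1 CPM in members and 5.66, 3.6, 3.1 and 2.68 CPM in the others (log2 fold change 4.09, SE 0.24, edgeR adjusted p = 1.49e-08). Its UMIs came from 15, 12, 25 and 25 member cells. Socs1, which blocks JAK kinases and so limits the interferon signal, stood at 97.7, 160.2, 90.9 and 75.9 against 14.6, 11.2, 7.83 and 7.41 CPM (log2 fold change 3.41, SE 0.19, edgeR adjusted p = 8.50e-09). Nlrc5, the transactivator of class I genes, had a log2 fold change of 1.52 (SE 0.18). All of these separated members from the others in each of the 4 libraries.

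Ifngr1, the ligand-binding chain of the interferon-gamma receptor, went the other way. It stood at 269, 200.3, 375 and 304 CPM in members and 332, 384, 574 and 486 CPM in the others (log2 fold change -0.59, SE 0.10, edgeR adjusted p = 7.49e-04), lower in the members of each library. Ifngr2, the second chain, stood at 76, 85.1, 114 and 94.8 and 80.5, 85.3, 136 and 120.0 CPM and was not called (log2 fold change -0.20, SE 0.12, edgeR adjusted p = 0.448). Ciita, the master regulator of class II genes, was not called either (log2 fold change 0.55, SE 0.20, edgeR adjusted p = 0.128). Ifng itself had 0, 2, 0 and 1 UMIs in all members together.

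Among the antiviral genes, Ifit1, whose protein binds foreign RNA ends, stood at 155, 195, 132 and 193 CPM in members and 34, 30.2, 6.7 and 10.6 CPM in the others (log2 fold change 3.57, SE 0.28, edgeR adjusted p = 2.02e-07). Ifit2, a member of the same family, stood at 109, 125, 131 and 166 against 24.7, 27.7, 6.74 and 13.8 CPM (log2 fold change 3.34, SE 0.27, edgeR adjusted p = 3.30e-07). Ifit3 stood at 65.1, 35, 119.9 and 266 against 21.8, 19.8, 10.1 and 21.7 CPM (log2 fold change 3.05, SE 0.30, edgeR adjusted p = 2.70e-06). The gap was narrowest for Ifit3 in NCD replicate 2, where 6 member cells held its UMIs. Ifit1bl1, a further member of that gene cluster, had a log2 fold change of 3.94 (SE 0.38), Rsad2 (viperin, an antiviral enzyme) one of 2.94 (SE 0.21) and the DNA sensor-like gene Ifi205 one of 3.0 (SE 0.16). Ifit and Ifi200 genes have close copies, so reads may have been divided among them and single values in these families are uncertain.

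All 6 tested guanylate-binding protein genes outside the rule were higher in members (median 2.55). Gbp4 stood at 144, 100.1, 109 and 62 CPM in members and 41.2, 23, 5.94 and 6.74 CPM in the others (log2 fold change 3.01, SE 0.30, edgeR adjusted p = 3.39e-06). Gbp7 and Gbp3 followed with 2.79 (SE 0.18) and 2.31 (SE 0.20). Gbp2b rested on few cells (5, 1, 2 and 2) and its log2 fold change of 2.98 fell below the threshold without 1 library, at 2.39 without MCD replicate 1 (adjusted p = 0.0561). Of 8 tested immunity-related GTPases, which attack the vacuoles of intracellular microbes, 6 were higher and none was lower. Iigp1 stood at 203, 70.1, 76.9 and 46.7 against 31.1, 29.9, 1.84 and 4.95 CPM (log2 fold change 3.28, SE 0.39, edgeR adjusted p = 2.63e-05), and Igtp and Ifi47 had log2 fold changes of 2.62 (SE 0.17) and 2.56 (SE 0.17). Tgtp2 had 2.66 (SE 0.42); its near-identical neighbour Tgtp1 was not tested, so the Tgtp2 value is uncertain.

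Genes of class I presentation and the immunoproteasome were higher in 14 of 16 cases, by smaller factors (median 0.65). Tap1, a chain of the peptide transporter, stood at 130.2, 110.2, 318 and 233 CPM in members and 51, 47.5, 111 and 100.1 CPM in the others (log2 fold change 1.37, SE 0.12, edgeR adjusted p = 5.41e-07). Its partner Tap2 had 0.97 (SE 0.14) and the immunoproteasome subunit Psmb9 0.94 (SE 0.11). The peptide editor Tapbpl had 0.95 (SE 0.19) and missed the threshold at 0.84 without MCD replicate 1 (adjusted p = 0.0985). Class II genes differed little: 2 of 9 were higher, H2-DMa at 0.37 (SE 0.10) and Cd74, the invariant chain, at 0.34 (SE 0.10). Both calls were lost without either MCD replicate or without NCD replicate 2. Without MCD replicate 1, the values were 0.29 (adjusted p = 0.431) for H2-DMa and 0.28 (adjusted p = 0.462) for Cd74; without MCD replicate 2 they were 0.45 (adjusted p = 0.0629) and 0.44 (adjusted p = 0.0646), and without NCD replicate 2 they were 0.35 (adjusted p = 0.0634) and 0.34 (adjusted p = 0.145).

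**Figure D3:**
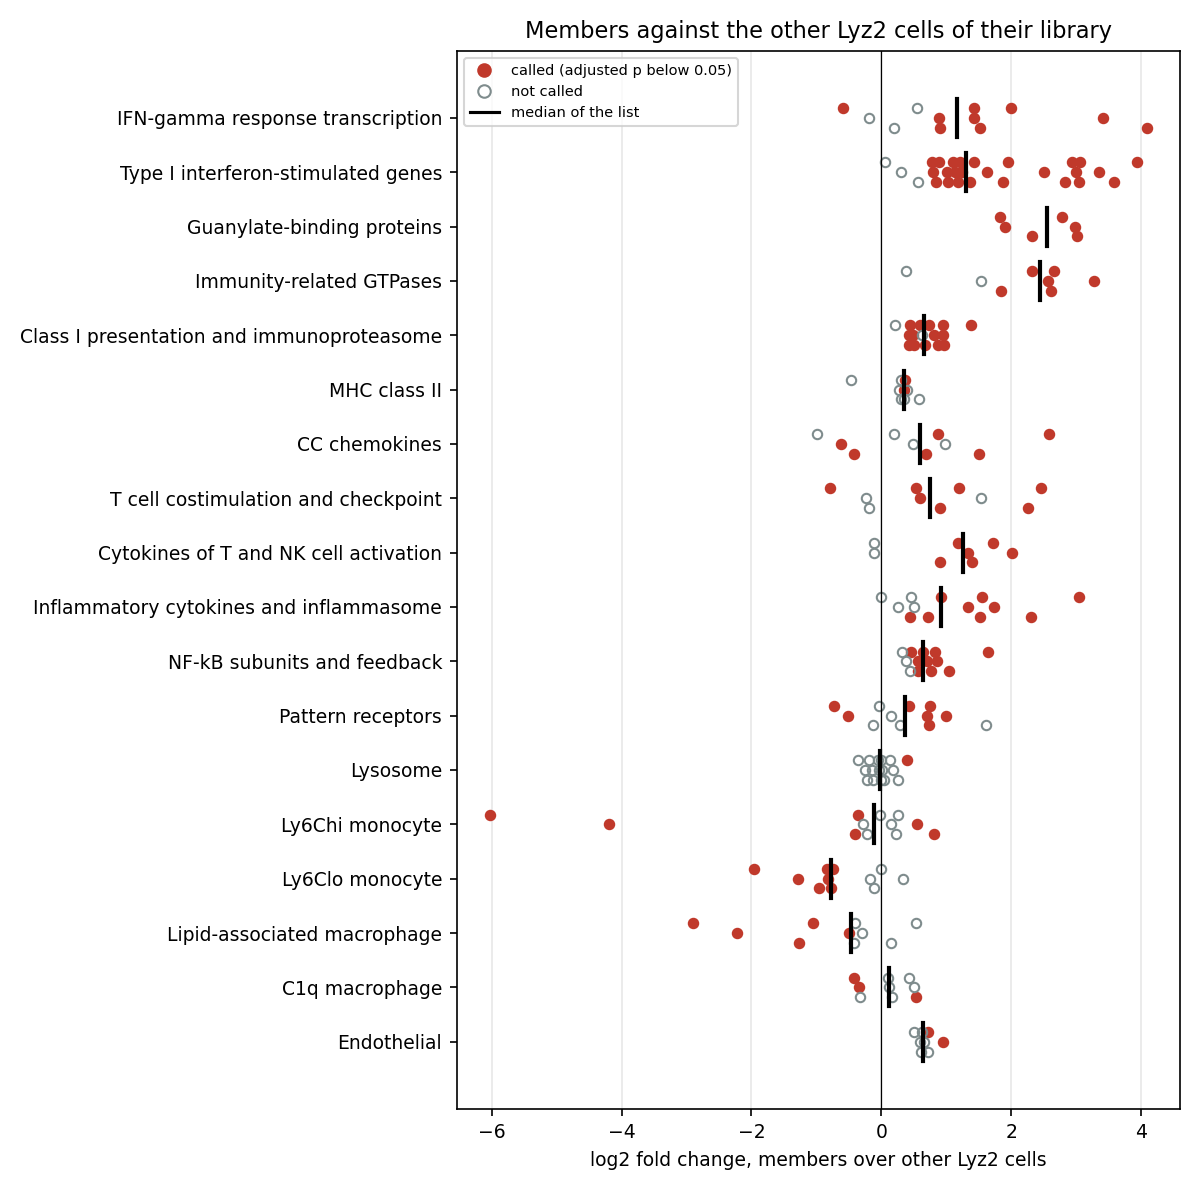
Log2 fold change of members over the other Lyz2 cells for each tested gene (points) of 18 lists, with genes called at an adjusted p below 0.05 filled and the list median as a bar. The interferon, guanylate-binding protein and immunity-related GTPase lists lie to the right, with medians of 1.17 and 1.30 for the interferon-gamma transcription and type I lists, while the Ly6Clo monocyte list lies to the left with a median of -0.78.

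Genes that speak to T cells were higher as well. Of 10 tested genes of costimulation and checkpoints, 6 were higher and 1 was lower. Cd274, the gene of the inhibitory ligand PD-L1, stood at 293, 366, 318 and 185 CPM in members and 74.4, 45, 61.6 and 51.9 CPM in the others (log2 fold change 2.26, SE 0.16, edgeR adjusted p = 6.50e-08). Cd40, the receptor for T cell help, stood at 119, 130.2, 224 and 161 against 19, 13.7, 41.2 and 38.3 CPM (log2 fold change 2.46, SE 0.16, edgeR adjusted p = 2.48e-08). Tnfsf9, the ligand of 4-1BB, had 1.19 (SE 0.18), and Icosl, the ligand of ICOS, had 0.91 (SE 0.19) with its call lost at 0.77 without MCD replicate 1 (adjusted p = 0.155). Vsir, the gene of the checkpoint protein VISTA, was lower in members at -0.79 (SE 0.13). Of 8 tested cytokine genes that activate T and natural killer cells, 6 were higher. Among them Il27 stood at 24.4, 30, 27 and 22.6 against 8.09, 8.27, 8.37 and 7.11 CPM (log2 fold change 1.71, SE 0.25, edgeR adjusted p = 1.87e-04) and Il15 had 1.40 (SE 0.22). Il18bp, the soluble inhibitor of IL-18, had 2.01 (SE 0.39), or 1.32 without MCD replicate 1 (adjusted p = 0.162). Tnfsf10, the gene of TRAIL, had 1.33 (SE 0.39), and its call was lost at 1.34 without MCD replicate 1 (adjusted p = 0.121), 0.93 without MCD replicate 2 (adjusted p = 0.462) and 1.27 without NCD replicate 1 (adjusted p = 0.163). Il12b had 0 UMIs in members and 69 in the other Lyz2 cells. Against a floor of 3 counts over all member cells, the bound was at least 1.21-fold lower in members. That bound pools UMIs over libraries, and a difference in Il12b was not tested.

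Of 13 tested inflammatory genes, 9 were higher and none was lower. Irg1, now named Acod1, makes the metabolite itaconate and stood at 103, 105, 282 and 231 CPM in members and 14.6, 5.04, 30 and 37.6 CPM in the others (log2 fold change 3.05, SE 0.18, edgeR adjusted p = 1.49e-08). Il6 stood at 78.7, 60.1, 52 and 188 against 9.3, 20.1, 12.5 and 37.1 CPM (log2 fold change 2.30, SE 0.16, edgeR adjusted p = 7.11e-08), from 7, 5, 8 and 30 member cells. Il1rn, the gene of the IL-1 receptor antagonist, had 1.74 (SE 0.29), and Tnf had 1.56 (SE 0.13). Of 13 NF-kB subunit and feedback genes, 10 were higher, led by Tnfaip2 at 1.65 (SE 0.15) and by Tnfaip3 (A20, an inhibitor of the pathway) at 1.04 (SE 0.12). Nfkbie, an inhibitor that holds NF-kB in the cytoplasm, and the signalling adaptor Traf1 followed with 0.85 (SE 0.16) and 0.82 (SE 0.15).

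Other chemokines moved in both directions. Ccl5, the RANTES gene, stood at 372, 716, 185 and 235 CPM in members and 327, 285, 39.9 and 58.3 CPM in the others (log2 fold change 1.50, SE 0.24, edgeR adjusted p = 4.48e-04), and in the NCD libraries 1 cell held 47.4 and 47.6% of the member UMIs. Ccl4 and the monocyte attractant Ccl2 were higher at 0.87 (SE 0.14) and 0.69 (SE 0.13). Ccl12 was higher at 2.58 (SE 0.44), or 2.17 without MCD replicate 1 (adjusted p = 0.0541). Ccl6 was lower at -0.62 (SE 0.09). Ccl9 was lower at -0.42 (SE 0.11), and its call was lost at -0.42 without MCD replicate 1 (adjusted p = 0.162), -0.34 without NCD replicate 1 (adjusted p = 0.115) and -0.34 without NCD replicate 2 (adjusted p = 0.108). Cxcl16, a membrane-bound chemokine, was higher at 0.98 (SE 0.13). Cxcl2, a neutrophil attractant, had 0.75 (SE 0.18) and lost its call at 0.60 without NCD replicate 1 (adjusted p = 0.0902) and 0.62 without NCD replicate 2 (adjusted p = 0.0738). Cxcl3 was called higher (2.02), but its UMIs came from 4 and 3 MCD member cells, 1 of which held 93.2 and 90.9% of them, and it had 0 UMIs in NCD members.

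Among innate receptors, 5 of 12 pattern receptor genes were higher and 2 lower. Nod2 and Nod1, sensors of bacterial wall fragments, were higher at 0.99 (SE 0.20) and 0.75 (SE 0.14), and Clec4e (Mincle) at 0.73 (SE 0.13). Tlr13, a mouse sensor of bacterial ribosomal RNA, was lower at -0.72 (SE 0.15), with its call lost at -0.76 without MCD replicate 1 (adjusted p = 0.058) and -0.72 without MCD replicate 2 (adjusted p = 0.0542). Tlr7, a sensor of single-stranded RNA, was lower at -0.51 (SE 0.15), and its call was lost without any 1 of the 4 libraries, at -0.46 without MCD replicate 1 (adjusted p = 0.326), -0.66 without MCD replicate 2 (adjusted p = 0.0608), -0.49 without NCD replicate 1 (adjusted p = 0.112) and -0.45 without NCD replicate 2 (adjusted p = 0.0818). Of 5 Fc receptor genes, Fcgr1 was the 1 called. It encodes the high-affinity receptor CD64 and stood at 57, 40.1, 205 and 159 CPM in members and 40, 38.5, 75.5 and 75.3 CPM in the others (log2 fold change 1.08, SE 0.16, edgeR adjusted p = 3.12e-04). Only 1 of 16 lysosome genes was called, Ctsz at 0.39 (SE 0.11), and not at 0.49 without MCD replicate 1 (adjusted p = 0.0689), 0.35 without NCD replicate 1 (adjusted p = 0.0709) and 0.32 without NCD replicate 2 (adjusted p = 0.0818).

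Markers of other monocyte and macrophage states were mostly lower or not called in members. Of 11 tested Ly6Clo monocyte markers, 7 were lower and 0 were higher (median -0.78). Cx3cr1, the fractalkine receptor of patrolling monocytes, was lower at -0.84 (SE 0.11), Pglyrp1 at -1.29 (SE 0.22) and Cd300e at -1.96 (SE 0.35). Cd300e stood at 32.6, 15, 0 and 1.46 CPM in members and 71.2, 71.6, 9.63 and 9.46 CPM in the others, below them in each library. Eno3, a muscle-type enolase, was lower at -0.96 (SE 0.26) and lost its call at -0.81 without MCD replicate 1 (adjusted p = 0.288), -0.93 without NCD replicate 1 (adjusted p = 0.0785) and -0.88 without NCD replicate 2 (adjusted p = 0.0519).

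Of 10 lipid-associated macrophage markers, 5 were lower and 0 were higher. Gpnmb stood at 2.71, 0, 27 and 8.75 CPM in members and 5.26, 5.76, 41.1 and 41 CPM in the others (log2 fold change -1.28, SE 0.30, edgeR adjusted p = 0.0137). Mmp12, a macrophage elastase, had -2.90 (SE 0.44) on 0, 0, 3 and 3 member UMIs. Spp1 (osteopontin) had -2.22 (SE 0.41), which became -1.08 without MCD replicate 1 (adjusted p = 0.366). The tetraspanin gene Cd63 had -1.06 (SE 0.23) and lost its call at -0.91 without MCD replicate 1 (adjusted p = 0.253) and -0.95 without MCD replicate 2 (adjusted p = 0.11). Of 9 C1q macrophage markers, Aif1 was higher at 0.53 (SE 0.12) and 2 were lower, among them Apoe at -0.42 (SE 0.10). Aif1 lost its call at 0.47 without MCD replicate 1 (adjusted p = 0.131), and Apoe lost it at -0.45 without MCD replicate 2 (adjusted p = 0.0565) and -0.39 without NCD replicate 2 (adjusted p = 0.0801). C1qa stood at 103, 25, 161 and 74.4 and 72, 52.2, 57.6 and 91.3 CPM and was not called (log2 fold change 0.50, SE 0.25, edgeR adjusted p = 0.312). It was called higher without MCD replicate 2 (0.82, edgeR adjusted p = 0.0366) and with the rule at 0.1% (0.37, edgeR adjusted p = 0.0484), and was -0.11 without MCD replicate 1 (edgeR adjusted p = 0.938).

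Ly6c2, the marker of classical monocytes, stood at 385, 441, 371 and 705 CPM in members and 338, 382, 345 and 564 CPM in the others and was not called (log2 fold change 0.23, SE 0.09, edgeR adjusted p = 0.175). It was called higher with the rule at 0.4% (0.37, edgeR adjusted p = 0.0282) and without cells carrying lymphoid or endothelial markers (0.42, edgeR adjusted p = 0.00496). Of the 12 markers of that list, Ms4a4c and Plac8 were higher at 0.81 (SE 0.12) and 0.54 (SE 0.11), 4 were lower and 6 were not called. S100a8 and S100a9, the alarmins of neutrophils and classical monocytes, had the lowest folds of all. S100a8 stood at 13.6, 15, 20 and 12.4 CPM in members and 1248, 871, 234 and 35.2 CPM in the others (log2 fold change -4.20, SE 0.40, edgeR adjusted p = 1.91e-06), and S100a9 had -6.03 (SE 0.23). The 8 neutrophil markers summed to 136, 90.1, 163 and 214 CPM in members and 2888, 1739, 742 and 275 CPM in the others. Without cells in which these 2 genes took at least 0.5% of UMIs, the calls were lost, with log2 fold changes of -0.45 (adjusted p = 0.358) and -0.38 (adjusted p = 0.79).

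Markers of other cell types were also compared. Migratory dendritic cell markers had 0 of 5 tested genes called, with Ccr7 at log2 fold change 0.64, SE 0.35, edgeR adjusted p = 0.365. Ccr7 was called higher with the rule at 0.1% (log2 fold change 1.59, edgeR adjusted p = 1.43e-06) and when 1 portion of the UMIs chose the members (1.17, edgeR adjusted p = 0.00551), and was -0.39 without MCD replicate 2 (edgeR adjusted p = 0.776). Of 5 tested cDC1 markers, Cadm1 was lower at -1.96 (SE 0.57) and lost its call at -1.97 without MCD replicate 1 (adjusted p = 0.157) and -2.21 without NCD replicate 1 (adjusted p = 0.0941). Of 7 tested cDC2 markers, 2 were higher. Tnip3, which is also an NF-kB inhibitor, had 1.50 (SE 0.19), and Kmo had 1.53 (SE 0.38), lost at 0.99 without MCD replicate 1 (adjusted p = 0.419) and 1.58 without MCD replicate 2 (adjusted p = 0.0735). Klrk1, the gene of NKG2D, was higher at 1.19 (SE 0.22) and not called at 0.96 without MCD replicate 1 (adjusted p = 0.0586). Of the 8 endothelial markers, Eng and Kdr were higher at 0.96 (SE 0.25) and 0.73 (SE 0.19). Eng lost its call at 0.71 without MCD replicate 1 (adjusted p = 0.215) and 0.51 without MCD replicate 2 (adjusted p = 0.428), and Kdr lost its call at 0.52 without MCD replicate 1 (adjusted p = 0.18), 0.55 without MCD replicate 2 (adjusted p = 0.11) and 0.79 without NCD replicate 1 (adjusted p = 0.086). The part of endothelial RNA in the results was not tested beyond leaving out cells with such markers.

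The genes with the largest folds outside the lists included Serpina3g, an interferon-inducible inhibitor of cysteine proteases, at 206, 120.2, 281 and 123 CPM in members and 23.9, 21.6, 6.36 and 9.57 CPM in the others (log2 fold change 3.99, SE 0.33, edgeR adjusted p = 3.97e-07). Fam26f, also known as Calhm6, stood at 358, 295, 453 and 178 against 53.8, 40.3, 42.5 and 31.5 CPM (log2 fold change 2.93, SE 0.15, edgeR adjusted p = 4.42e-09). G0s2, an inhibitor of fat breakdown, was lower at -1.71 (SE 0.28). S1pr5, a receptor of patrolling monocytes and natural killer cells, was lower at -1.57 (SE 0.33), Mdm1 at -1.59 (SE 0.35), the sodium-potassium-chloride transporter gene Slc12a2 at -1.57 (SE 0.35) and Cyp2ab1 at -1.59 (SE 0.42). S1pr5 lost its call at -1.26 without MCD replicate 1 (adjusted p = 0.0712) and -1.39 without MCD replicate 2 (adjusted p = 0.0727), and Mdm1 lost its call at -1.18 without MCD replicate 1 (adjusted p = 0.0748). Slc12a2 lost its call at -1.11 without MCD replicate 1 (adjusted p = 0.0751), and Cyp2ab1 did so at -1.45 without MCD replicate 2 (adjusted p = 0.169) and -1.32 without NCD replicate 1 (adjusted p = 0.149). Of the 86 named genes called in this comparison, 59 passed when any 1 library was left out. The lost calls above are mostly those from left-out libraries, and other settings ended further calls. Gpnmb was not called with DESeq2 (-1.36, DESeq2 adjusted p = 0.113), and Tap2, Il15, Nod2 and Fcgr1 were not called with thinning to 1000 UMIs. Only 41 of the 86 were called under every setting.

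Members were divided next by their dominant chemokine, 94 cells with more Cxcl9 and 215 with more Cxcl10 UMIs, and 2 ties were set aside. The cells with more Cxcl9 numbered 33, 25, 24 and 12 by library, and those with more Cxcl10 numbered 54, 42, 43 and 76. Of 2937 genes tested, 244 (8.31%) were called, 92 (3.13%) higher with Cxcl9 and 152 (5.18%) higher with Cxcl10. Class II presentation genes were higher in the Cxcl9 cells in 6 of 6 tested cases, and type I interferon-stimulated genes were higher in the Cxcl10 cells in 13 of 22. Positive log2 fold changes below are higher with Cxcl9. Both groups were chosen by the UMIs of these chemokines, and neither chemokine was tested.

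Ifit3 stood at 14.1, 0, 15 and 15.3 CPM in cells with more Cxcl9 and 98.3, 59.6, 189.9 and 307 CPM in cells with more Cxcl10 (log2 fold change -3.79, SE 0.34, edgeR adjusted p = 6.40e-05). Ifit2 had -2.92 (SE 0.38), Ifit1 -2.78 (SE 0.43) and the nucleotide kinase gene Cmpk2 -2.67 (SE 0.34). Mx1, an antiviral GTPase, had -2.21 (SE 0.36), and Slfn5, of the Schlafen family, -1.62 (SE 0.28). Rsad2 had -1.86 (SE 0.37), or -1.72 without NCD replicate 2 (adjusted p = 0.0713). The median over the tested type I list was -1.17 and that over all genes was 0.01.

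H2-Ab1, a chain of the class II molecule I-A, stood at 2107, 1436, 4036 and 3217 CPM with more Cxcl9 and 1363, 417, 2091 and 1500.0 CPM with more Cxcl10 (log2 fold change 1.04, SE 0.14, edgeR adjusted p = 8.76e-04). The Cxcl9 cells were higher in each library. H2-DMa, which loads peptides, had 1.21 (SE 0.16), H2-Eb1 1.18 (SE 0.18) and H2-Aa 1.10 (SE 0.16). Of 15 tested class I and immunoproteasome genes, 8 were higher with Cxcl9, among them the immunoproteasome subunit Psmb10 at 1.01 (SE 0.20). Tapbpl had 1.32 (SE 0.30), or 1.26 without NCD replicate 2 (adjusted p = 0.07). H2-Q7 had 0.91 (SE 0.23) and lost its call at 0.69 without MCD replicate 2 (adjusted p = 0.114), 0.82 without NCD replicate 1 (adjusted p = 0.083) and 0.86 without NCD replicate 2 (adjusted p = 0.114), and the proteasome activator Psme2 had 0.87 (SE 0.24) and lost its call at 0.80 without MCD replicate 1 (adjusted p = 0.103) and 0.56 without MCD replicate 2 (adjusted p = 0.149). H2-Q7 has near-identical class I relatives, so its value is uncertain.

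**Figure D4:**
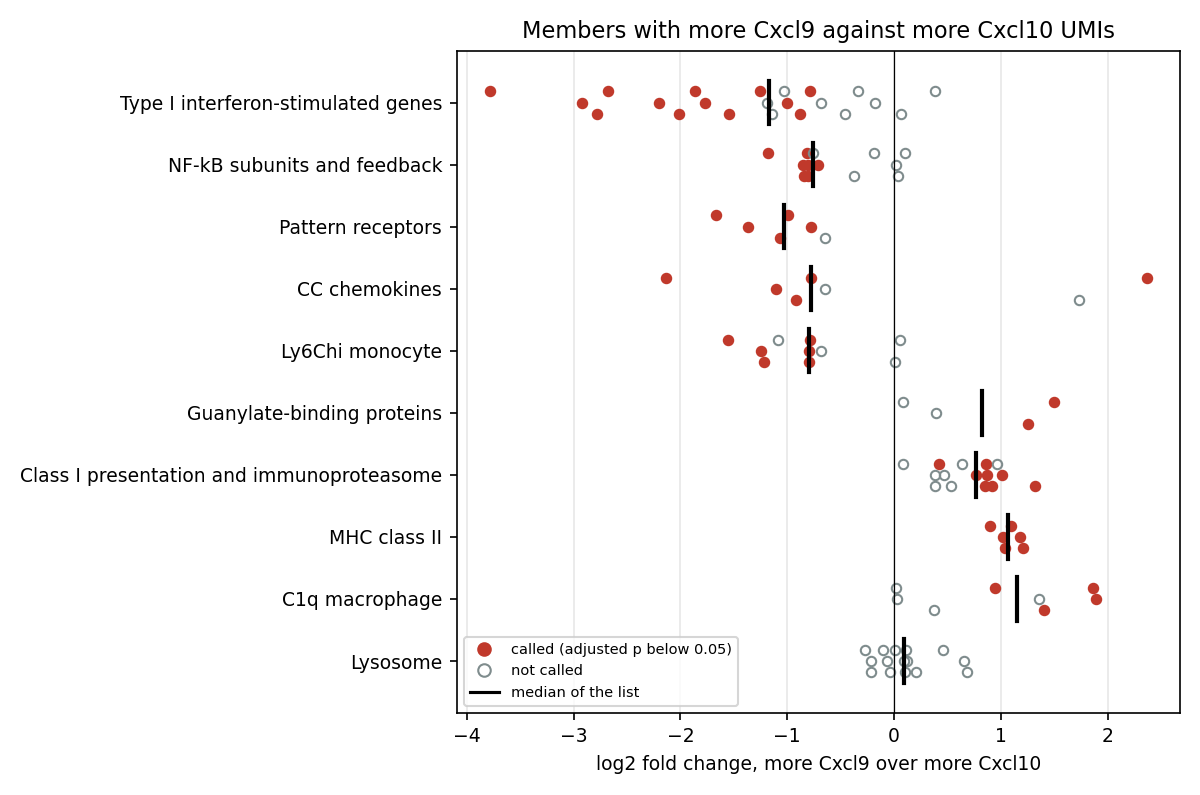
Log2 fold change of members with more Cxcl9 over members with more Cxcl10 UMIs for each tested gene (points) of 10 lists, with called genes filled and the list median as a bar. The type I interferon list lies to the left with a median of -1.17, and the class II list lies to the right with a median of 1.07.

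Of 11 tested genes of interferon-gamma response transcription, 3 were higher with Cxcl10 and 1 with Cxcl9. Irf1 stood at 276, 115, 395 and 194 CPM with more Cxcl9 and 366, 502, 986 and 562 CPM with more Cxcl10 (log2 fold change -1.28, SE 0.22, edgeR adjusted p = 0.00327). Socs1 had -1.75 (SE 0.40) and Socs3, the inhibitor of STAT3 signalling, -1.11 (SE 0.21), both higher with Cxcl10. Socs1 lost its call at -1.04 without MCD replicate 1 (adjusted p = 0.12) and -1.90 without NCD replicate 2 (adjusted p = 0.0744), and Socs3 lost its call at -0.83 without MCD replicate 1 (adjusted p = 0.0515) and -1.08 without NCD replicate 2 (adjusted p = 0.0507). Among GTPases, Gbp4 was higher with Cxcl9 at 1.50 (SE 0.27) and Irgm1 was higher with Cxcl10 at -1.29 (SE 0.23). Gbp9 was higher with Cxcl9 at 1.25 (SE 0.29) and not called at 1.08 without MCD replicate 2 (adjusted p = 0.0567) and 1.17 without NCD replicate 2 (adjusted p = 0.0807).

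Macrophage and monocyte markers parted along the same division. Of 8 tested C1q macrophage markers, 4 were higher with Cxcl9 and 0 with Cxcl10. C1qb, a chain of complement C1q, stood at 169.7, 64.1, 684 and 113 CPM with more Cxcl9 and 44.7, 0, 105 and 81.7 CPM with more Cxcl10 (log2 fold change 1.86, SE 0.36, edgeR adjusted p = 0.00784), and its call was lost at 1.19 without MCD replicate 1 (adjusted p = 0.101). C1qc had 1.89 (SE 0.45), or 1.79 without NCD replicate 2 (adjusted p = 0.0883), and Aif1, an actin-binding protein of macrophages, had 1.41 (SE 0.21). The mannose receptor gene Mrc1 had 0.95 (SE 0.26) and lost its call at 0.84 without MCD replicate 1 (adjusted p = 0.101), 0.85 without NCD replicate 1 (adjusted p = 0.133) and 0.79 without NCD replicate 2 (adjusted p = 0.192). Of 10 tested Ly6Chi monocyte markers, 6 were higher with Cxcl10 and 0 with Cxcl9. F13a1, a transglutaminase gene of monocytes, had -1.55 (SE 0.20) and haptoglobin (Hp) -1.22 (SE 0.18). Fibronectin (Fn1) had -0.80 (SE 0.18), or -0.61 without MCD replicate 2 (adjusted p = 0.053) and -0.76 without NCD replicate 2 (adjusted p = 0.0762). Ly6c2 stood at 346, 410.4, 252 and 266 CPM with more Cxcl9 and 411, 476, 449.8 and 778 CPM with more Cxcl10 (log2 fold change -0.78, SE 0.21, edgeR adjusted p = 0.0358).

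Of 7 tested CC chemokine genes, 4 were higher with Cxcl10 and 1 with Cxcl9. Ccl2 stood at 212, 25.6, 74.9 and 113 CPM with more Cxcl9 and 460.2, 511, 463 and 416 CPM with more Cxcl10 (log2 fold change -2.13, SE 0.30, edgeR adjusted p = 0.001). Ccl4 and Ccl9 had -1.10 (SE 0.28) and -0.91 (SE 0.19), and Cxcl2 had -1.40 (SE 0.32). Ccl4 lost its call at -0.74 without MCD replicate 1 (adjusted p = 0.103), Ccl9 at -0.70 without MCD replicate 1 (adjusted p = 0.0944) and Cxcl2 at -1.33 without NCD replicate 2 (adjusted p = 0.12). Of 13 NF-kB genes, 7 were higher with Cxcl10 and 0 with Cxcl9, among them Nfkbia, the classical inhibitor, at -0.84 (SE 0.11) and the subunit Rel at -0.85 (SE 0.17). Bcl3 had -1.18 (SE 0.29), lost at -0.72 without MCD replicate 1 (adjusted p = 0.347) and -1.39 without NCD replicate 2 (adjusted p = 0.0513), and Tnfaip2 had -0.82 (SE 0.17), lost at -0.71 without NCD replicate 2 (adjusted p = 0.0716). Of 6 tested pattern receptors 5 were higher with Cxcl10. Clec4e had -1.06 (SE 0.20) and was not called at -0.74 without MCD replicate 1 (adjusted p = 0.0515). Cd14, the lipopolysaccharide co-receptor, had -1.66 (SE 0.36) and was not called at -1.76 without NCD replicate 2 (adjusted p = 0.0661).

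Genes higher with Cxcl9 outside these groups included Lpl, lipoprotein lipase, at 594, 231, 375 and 992 CPM with more Cxcl9 and 134, 51.1, 66.6 and 122 CPM with more Cxcl10 (log2 fold change 2.57, SE 0.20, edgeR adjusted p = 3.21e-05). Cxcl16 had 1.46 (SE 0.18), the cytokine gene Mif 1.90 (SE 0.21), the antioxidant enzyme gene Prdx5 1.07 (SE 0.18) and the cathepsin inhibitor gene Cstb 1.03 (SE 0.17). The glycolytic gene Gapdh and the ATP synthase gene Atp5g3 had 0.99 (SE 0.15) and 0.91 (SE 0.17); both have many processed copies in the genome and are uncertain. Ccl5 had 2.37 (SE 0.59), or 1.79 without NCD replicate 2 (adjusted p = 0.162). Nos2, which makes nitric oxide, had 14 UMIs in cells with more Cxcl9 and 1 UMI in cells with more Cxcl10, and was not tested. The ratio was 36.3 per UMI, with a counting interval from 5.53 to 1537. That interval pools UMIs over libraries and does not measure the spread between cells or libraries. Clec4g, a marker of liver sinusoidal endothelium, was higher with Cxcl9 at 1.27 (SE 0.27) and not called at 1.23 without NCD replicate 2 (adjusted p = 0.0851). It was the 1 of 7 tested endothelial markers called.

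The diets were compared within members by library sums, 2 NCD against 2 MCD. Of 6435 genes tested, 725 (11.3%) were called by edgeR's quasi-likelihood test, 393 (6.11%) higher and 332 (5.16%) lower on MCD. With library totals in place of TMM scaling, 714 were higher and 317 lower, and the median over all genes moved from 0.02 to 0.17 on the log2 scale. Some monocyte, lipid-handling and NF-kB genes were among those higher on MCD. Most interferon-induced genes were not called, but neither were most of all genes tested. The calls therefore do not set interferon-induced genes apart from the rest. No gene was called when MCD replicate 1 or MCD replicate 2 was left out, where the smallest edgeR adjusted p was 0.0996 and 0.227 and 1124 and 1028 genes had an unadjusted p under 0.05. The diet values below are therefore given with the levels in each library and rest on both MCD libraries. Among the other Lyz2 cells, 5694 of 11843 genes (48.1%) were called between diets, from sums many times larger.

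Of 28 tested type I interferon-stimulated genes, 3 were higher and 2 lower on MCD, and 0 of 5 guanylate-binding protein genes and 0 of 9 immunity-related GTPases were called. Irf1 in members stood at 328, 340.5, 749.5 and 509 CPM (log2 fold change 0.75, SE 0.22, edgeR adjusted p = 0.0679). Cd274 was not called (log2 fold change -0.55, SE 0.28, edgeR adjusted p = 0.233). A p above the threshold with 2 libraries a diet does not show that levels were alike. Irf7, which drives type I interferon production, was higher at 1.62 (SE 0.26) and Oasl1 at 1.65 (SE 0.32). Of 16 tested class I presentation and immunoproteasome genes, 5 were higher on MCD, 1 was lower and 10 were not called. Among those higher, the immunoproteasome subunit Psmb10 had 2.54 (SE 0.27). Socs3 was higher at 1.35 (SE 0.31), and Irf2, a repressor of IRF1 targets, was lower at -0.85 (SE 0.19).

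Of 13 tested inflammatory genes 3, of 13 NF-kB genes 3 and of 10 pattern receptors 3 were higher on MCD, and 0 of each list were lower. Il1b stood at 529, 295, 2478 and 3108 CPM in members (log2 fold change 2.57, SE 0.25, edgeR adjusted p = 0.00224), and the MCD libraries lay above the NCD libraries. In the other Lyz2 cells it stood at 292, 224, 1710.5 and 1693 CPM, a log2 fold change of 2.60 (SE 0.16). Cd14 stood at 106, 115, 636 and 1126 CPM in members (log2 fold change 2.85, SE 0.33, edgeR adjusted p = 0.00328) and at 138, 160.1, 704 and 919.8 CPM in the others. Nfkb2, an NF-kB subunit of the alternative pathway, had 3 UMIs in NCD members and 224 in MCD members. The ratio was 17.9 per UMI, with a counting interval from 6.04 to 87.4. That interval pools UMIs over libraries and does not measure the spread between them. Relb, the partner of Nfkb2, had 2.16 (SE 0.37), and Tnfsf9 had 2.61 (SE 0.39). Trem1, an amplifying receptor of monocytes and neutrophils, had 0 UMIs in NCD members and 194 in MCD members, at least 15.5-fold higher against a floor of 3 counts over the NCD members. In the other Lyz2 cells Trem1 stood at 6.47, 6.12, 60.4 and 87.5 CPM.

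Monocyte and macrophage markers changed in both directions. Of 11 tested Ly6Chi monocyte markers, 2 were higher on MCD, 1 (Plac8) was lower and 8 were not called. Haptoglobin (Hp) stood at 48.8, 60.1, 770.5 and 866 CPM in members (log2 fold change 3.79, SE 0.24, edgeR adjusted p = 6.07e-04) and 50.6, 65.8, 748 and 725 CPM in the others. Chil3, a chitinase-like protein of monocytes, stood at 165, 235, 1300.1 and 1662 CPM in members (log2 fold change 2.76, SE 0.25, edgeR adjusted p = 0.00224). Of 7 tested lipid-associated macrophage markers, 4 were higher on MCD and 0 lower, among them Trem2, a lipid receptor, at 5.43, 10, 86.9 and 62.7 CPM (log2 fold change 3.21, SE 0.50, edgeR adjusted p = 0.00969) and the lipid droplet gene Plin2 at 1.52 (SE 0.24). Apoe, an apolipoprotein gene, was higher at 2.07 (SE 0.17). Lower on MCD were Mrc1 at -1.63 (SE 0.31), the transcription factor gene Maf at -2.0 (SE 0.21) and Ccl5 at -1.51 (SE 0.32). Cd300e had 15 UMIs in NCD members and 2 in MCD members. The ratio was 31.3 per UMI, with a counting interval from 7.28 to 282.0 that also pools UMIs over libraries. Of 8 endothelial markers 5 were lower on MCD, led by Kdr at -2.12 (SE 0.26) and Stab2 at -1.77 (SE 0.23), and the summed levels of that list are given above. The part of endothelial RNA in the genes that were lower on MCD was not tested.

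The genes with the largest fitted diet differences included further genes with 0 UMIs in NCD members. Their bounds, like that of Trem1, pool UMIs over libraries and do not measure the spread between them. The genes were also picked for their large differences, so the bounds are a description and may be too high. Lcn2, an iron-binding protein of inflamed tissue, was at least 5.27-fold higher on MCD against that floor, Aspscr1 at least 5.35-fold and Sap30l at least 4.15-fold. Usp5 and Lrch4 were each at least 3.99-fold higher and Tfpt at least 3.2-fold. The predicted genes Gm8730 and Gm17056 were at least 7.35-fold and 4.63-fold higher, and both values are uncertain where such models copy other genes. Lower on MCD were B930036N10Rik at 266, 371, 19 and 24.1 CPM in members (log2 fold change -4.0, SE 0.29, edgeR adjusted p = 9.72e-04), the polyamine enzyme gene Amd1 at -2.71 (SE 0.39), and Polr2l and Nme2 at -2.31 (SE 0.25) and -2.13 (SE 0.28). In the other Lyz2 cells B930036N10Rik stood at 265, 249.6, 36.9 and 38.8 CPM, a log2 fold change of -2.88 (SE 0.11).

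Whether members stood apart from the other Lyz2 cells by a different amount on each diet was tested as an interaction term. Of 9470 genes tested, 101 (1.07%) were called, 83 (0.876%) with a larger member excess on MCD and 18 (0.19%) with a smaller one. Ifit genes were among the first, and Il1rn and Sdc4 among the second. Ifit1 was close between diets in members (155, 195, 132 and 193 CPM) and lower on MCD in the others (34, 30.2, 6.7 and 10.6 CPM). Its interaction was 1.88 on the log2 scale (SE 0.26, edgeR adjusted p = 7.51e-06). In the others, the diet difference itself was -2.0 (SE 0.26). Ifit3 had an interaction of 2.34 (SE 0.32) and Ifit2 one of 1.78 (SE 0.29), or 1.48 without MCD replicate 1 (adjusted p = 0.0529) for Ifit2.

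**Figure D5:**
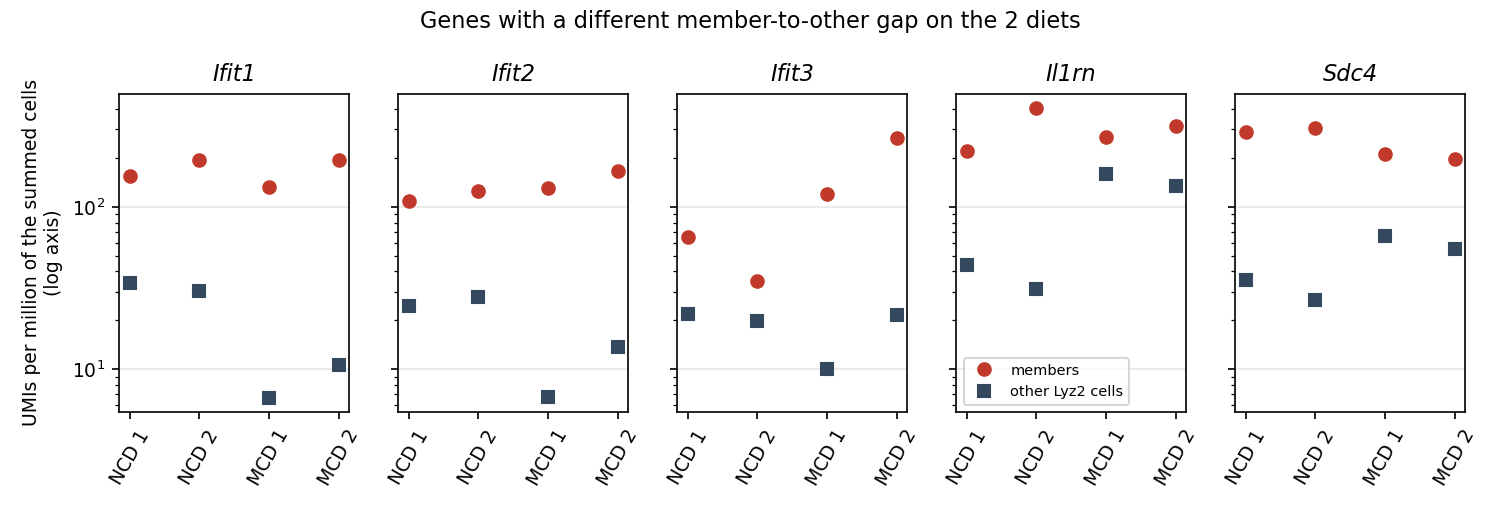
Levels of 5 genes in CPM (log axis) in members (circles) and the other Lyz2 cells (squares) of each library. For Ifit1 the member values of 132 to 195 stay close across diets while the others stand at 34.0 and 30.2 on NCD and 6.70 and 10.6 on MCD; for Il1rn the others lie higher on MCD and the gap is smaller.

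Il1rn moved the other way. It stood at 219.8, 406, 268 and 316 CPM in members and 43.7, 31.3, 158 and 135 CPM in the others, an interaction of -1.93 (SE 0.26, edgeR adjusted p = 5.26e-06). Sdc4, a cell-surface heparan sulfate carrier, stood at 290.3, 305, 209.9 and 196 CPM in members and 35.6, 26.6, 65.9 and 55 CPM in the others, an interaction of -1.43 (SE 0.24). Of 8 endothelial markers, 6 also had a larger member excess on MCD, with Ptprb at 1.86 (SE 0.23) and Cdh5 at 1.55 (SE 0.29). Without cells that carried lymphoid or endothelial markers, 15 genes were called; Ifit1 then had 1.04 (adjusted p = 0.71) and Ifit2 1.47 (adjusted p = 0.215). Without cells that carried cDC1 or migratory dendritic cell markers, which left 62, 55, 20 and 22 members, 0 genes were called by edgeR and 335 had an unadjusted p under 0.05. The other Lyz2 cells also fell, from 814, 886, 1792 and 2067 to 682, 756, 571 and 690. A cell counted as carrying markers with at least 2 UMIs of the list together, whatever its depth. The part of the deeper MCD cells in these losses was not tested. Of the 36 named genes called for this term, 6 passed when any 1 library was left out.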

How the data were processed

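Per the file headers, the deposited UMI counts per gene and cell barcode were written by Cell Ranger 3.0.2, and the submitters' processing notes name mm10. No source used here states how cells were called. The 27998 genes shared by all 4 libraries were used. MCD replicate 1 was deposited with 27998 genes and each of the others with 28692. An effect of this difference on levels was not tested. The libraries held 7428431 to 37772284 UMIs in 2699 to 3475 barcodes, and 4 to 12 barcode sequences were shared between any 2 libraries. Doublets were not removed. Members and gene lists were chosen with earlier results of these data known. UMI counts were summed per library and class and tested with edgeR 4.0.16 (limma 3.58.1, R 4.3.3; TMM scaling, filterByExpr, quasi-likelihood F test, Benjamini-Hochberg over all tested genes, threshold 0.05). The 5 genes of the rule stayed in library sizes and out of the tests. Genes named were the rule genes, up to 10 called genes a direction with UMIs in at least 10 cells of each higher library and a like sign in each library, the first 4 called of each list with any called the other way and a short set of interferon and lineage genes such as Ifng, Irf1 and Ly6c2; some of the genes so chosen are not reported here. Alternatives included DESeq2 1.42.0, library totals, no low-count filter, thinning, other rule thresholds and each library left out. Code for shares and sums used Python 3.11.15, numpy 2.4.6, scipy 1.17.1, pandas 2.3.3 and matplotlib 3.10.9. The edgeR fits were also run on simulated counts, with changes planted only in genes with enough counts and a fixed spread. Those runs do not show how the fits behave for genes with few UMIs. Genes without usable symbols in all files (such as Cxcl11, Mx2 and Gbp6) were not analysed here.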

Additional observations from a re-analysis of the deposited data

Results flagged for a closer look

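The member excess over the other Lyz2 cells differed between diets, by the interaction term of edgeR's quasi-likelihood test, for 83 genes in which it was larger on MCD and 18 in which it was smaller. The 20 named genes are given here with the log2 difference of the excess, MCD minus NCD, and with the value when a left-out library ended the call.

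Lcn2, an iron-binding protein of inflamed tissue, had 10.18 (edgeR adjusted p = 0.0271), and the call was lost at 9.02 without MCD replicate 2 (adjusted p = 0.166), 10.36 without NCD replicate 1 (adjusted p = 0.541) and 10.58 without NCD replicate 2 (adjusted p = 0.0671). For Ifit3 the difference was 2.34 (edgeR adjusted p = 5.26e-06), called with any 1 library left out. Iigp1, an immunity-related GTPase, had 2.03 (edgeR adjusted p = 0.00153), and the call was lost at 1.12 without MCD replicate 1 (adjusted p = 0.875), 2.96 without NCD replicate 1 (adjusted p = 0.0535) and 1.62 without NCD replicate 2 (adjusted p = 0.0543). For Mthfd2, a mitochondrial folate enzyme, the difference was 1.96 (edgeR adjusted p = 0.0482), and the call was lost at 1.71 without MCD replicate 1 (adjusted p = 0.783), 2.23 without MCD replicate 2 (adjusted p = 0.164), 2.24 without NCD replicate 1 (adjusted p = 0.376) and 1.85 without NCD replicate 2 (adjusted p = 0.139). Ifit1 had 1.88 (edgeR adjusted p = 7.51e-06), called with any 1 library left out. For Gbp4, a guanylate-binding protein, the difference was 1.87 (edgeR adjusted p = 1.50e-04), and the call was lost at 1.33 without MCD replicate 1 (adjusted p = 0.37) and 1.60 without NCD replicate 1 (adjusted p = 0.221). Ifit2 had 1.78 (edgeR adjusted p = 7.90e-05), and the call was lost at 1.48 without MCD replicate 1 (adjusted p = 0.0529). For Serpina3g, a protease inhibitor, the difference was 1.77 (edgeR adjusted p = 0.00146), and the call was lost at 0.88 without MCD replicate 1 (adjusted p = 1) and 2.12 without NCD replicate 1 (adjusted p = 0.233). Ly6a, the gene of Sca-1, had 1.77 (edgeR adjusted p = 2.64e-04), and the call was lost at 1.23 without MCD replicate 1 (adjusted p = 0.22) and 2.06 without NCD replicate 1 (adjusted p = 0.108). For Ly6i, a further Ly6 gene, the difference was 1.71 (edgeR adjusted p = 0.00148), and the call was lost at 0.90 without MCD replicate 1 (adjusted p = 0.924) and 1.0 without NCD replicate 1 (adjusted p = 0.591). Lcn2 had 0 UMIs in NCD members, so its fitted value depends on the prior count and is no bound.

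Il1rn had -1.93 (edgeR adjusted p = 5.26e-06), called with any 1 library left out. For Fpr2, a formyl peptide receptor, the difference was -1.48 (edgeR adjusted p = 0.0055), and the call was lost at -1.44 without MCD replicate 1 (adjusted p = 0.14) and -1.14 without NCD replicate 2 (adjusted p = 0.181). Sdc4 had -1.43 (edgeR adjusted p = 1.06e-04), called with any 1 library left out. For Lpl, lipoprotein lipase, the difference was -1.37 (edgeR adjusted p = 1.23e-04), and the call was lost at -1.15 without MCD replicate 1 (adjusted p = 0.0981) and -1.08 without NCD replicate 1 (adjusted p = 0.259). Gadd45b, a stress-response gene, had -1.21 (edgeR adjusted p = 0.00499), and the call was lost at -1.31 without MCD replicate 1 (adjusted p = 0.0662), -1.09 without MCD replicate 2 (adjusted p = 0.276) and -0.83 without NCD replicate 1 (adjusted p = 0.575). For Sod2, mitochondrial superoxide dismutase, the difference was -1.10 (edgeR adjusted p = 0.0013), and the call was lost at -1.01 without MCD replicate 2 (adjusted p = 0.22). Ier3, an immediate early gene, had -1.05 (edgeR adjusted p = 0.00375), and the call was lost at -1.15 without MCD replicate 1 (adjusted p = 0.116) and -0.96 without MCD replicate 2 (adjusted p = 0.4). For Tnip3, an NF-kB inhibitor, the difference was -0.96 (edgeR adjusted p = 0.0307), and the call was lost at -1.01 without MCD replicate 1 (adjusted p = 0.22), -0.94 without MCD replicate 2 (adjusted p = 0.374) and -0.27 without NCD replicate 2 (adjusted p = 0.771). C3, complement component C3, had -0.92 (edgeR adjusted p = 0.00585), and the call was lost at -0.98 without MCD replicate 1 (adjusted p = 0.248) and -0.86 without MCD replicate 2 (adjusted p = 0.56). For Tnfaip2, a TNF-induced gene, the difference was -0.90 (edgeR adjusted p = 0.00484), and the call was lost at -1.0 without MCD replicate 1 (adjusted p = 0.235) and -0.82 without MCD replicate 2 (adjusted p = 0.765). Il1rn and Sdc4 are described with their levels above. No explanation was tested for these differences.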

How the results depend on the processing

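The count of genes that differed between members and the other Lyz2 cells (643) was 282 with cells thinned to 1000 UMIs and 321 without cells carrying cDC1 or migratory dendritic cell markers, and it ran from 323 to 661 with 1 library left out. Of the 643 genes, 232, 290 and 311 were among those called with thinning, without those cells and without MCD replicate 1. With no filter on low counts, the numbers higher and lower were 478 and 450, and with DESeq2 361 and 106. The count for dominant chemokine (244) was 157 with DESeq2, 375 with no filter and 28 with thinning, and ran from 101 to 271 with 1 library left out, lowest without NCD replicate 2 (101) and MCD replicate 1 (108).

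The diet count in members (725) was 434 with DESeq2, 1268 with no filter, 1751 with the rule at 0.1%, 419 with the rule at 0.4%, 331 with thinning and 389 without dendritic marker cells, and it ran from 0 to 595 with 1 library left out. The lone library of a diet was then assumed to vary like the others. The diet count in the other Lyz2 cells (5694) was 2812 with thinning and ran from 3561 to 5326, lowest without NCD replicate 2. The interaction count (101) was 28 with DESeq2, 63 with library totals, 34 and 16 with the rule at 0.1% and 0.4%, 3 with thinning, 15 without lymphoid or endothelial marker cells and 0 without dendritic marker cells (335 at an unadjusted p under 0.05). It ran from 38 to 115 with 1 library left out, lowest without MCD replicate 1 (38) and MCD replicate 2 (57). Fewer UMIs or members entered most of these fits, and the cause of the changes was not tested.

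The difference in share (-4.60 points) was -6.84 points at a mitochondrial limit of 5%, where 63 and 60 NCD Lyz2 cells were left, and between -5.91 and -3.28 with 1 library left out. With the replicate number as a block, the diet count was 1102 in members, of which 724 were among the 725, and 5901 in the others. Same-numbered libraries deviated from their diet mean with correlations of 0.0116 in members and 0.0980 in the others, so the numbers were not taken to pair the libraries. The neutrophil and 5-UMI settings were chosen after seeing the data.

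Signs changed in a few cases. Between members and others, C1qa ran from -0.11 to 0.82 and Ccr7 from -0.39 to 1.05 with 1 library left out; of these values, C1qa at 0.82 without MCD replicate 2 was called. For the interaction, Egfl7 was -0.21 with thinning and -0.53 without lymphoid or endothelial marker cells, Fabp4 ran from -0.28 to 2.06 with 1 library left out, and S100a8 was -3.50 with thinning and -0.61 without neutrophil-rich cells. Of the genes named, 41 of 86 called between members and others and 23 of 58 called by dominant chemokine were called under every setting tried, against 0 of 36 for the interaction and 0 of 72 for diet in members. The 199723 member UMIs of NCD replicate 2 limit what could be detected on that diet.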

Other observations

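Cells with the chemokine signal were also found among the retained cells with less than 0.2% Lyz2, which the rule leaves out. Those that met the other conditions numbered 70, 34, 20 and 39, or 8.4, 4.09, 1.83 and 3.97% of the low-Lyz2 cells of each library. Cxcl9 stood there at 3311, 2876, 1963 and 2282 CPM and Cxcl10 at 1152, 1507, 4269.6 and 2049 CPM. The 9 class II genes summed to 13712, 14439, 44012 and 44233 CPM in these cells and to 10016, 6008, 16443 and 10928 CPM in members, higher in the low-Lyz2 cells of each library. Migratory dendritic cell markers summed to 470.0, 469.6, 1056 and 3246 CPM against 168, 60.1, 42 and 106 CPM in members. Endothelial markers summed to 1276, 3453, 33.2 and 1746 CPM, with a low in MCD replicate 1. In the remaining low-Lyz2 cells the class II genes summed to 14043, 10342, 42949 and 43801 CPM. Migratory dendritic cell markers summed there to 369, 210, 1312 and 1592 CPM and endothelial markers to 1594, 3063.5, 758 and 1489 CPM. The class II and migratory sums of the remaining cells were thus also above those of members in each library. The low-Lyz2 cells are given as values and were not tested.

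Ifng, the gene of interferon-gamma, had 0, 2, 0 and 1 UMIs in members, 11, 13, 8 and 15 in the other Lyz2 cells and 12, 32, 138 and 86 in the low-Lyz2 cells. The latter came from 8, 20, 27 and 25 cells. Cxcr3, the receptor of both chemokines, had 2, 0, 1 and 3 UMIs in members and 2, 0, 60 and 67 in the low-Lyz2 cells. In the other Lyz2 cells Cxcr3 had 2, 2, 23 and 19 UMIs. The sums behind these counts differed in size. Per 1000000 UMIs, Cxcr3 stood at 0.942, 0, 8.07 and 7.48 and Ifng at 5.65, 14.5, 18.6 and 9.6 CPM in the low-Lyz2 cells. In members Cxcr3 stood at 5.43, 0, 0.999 and 2.19 CPM and Ifng at 0, 10.0, 0 and 0.729 CPM. Cxcr3 was thus higher in members than in the low-Lyz2 cells in NCD replicate 1, on 2 UMIs.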
